A study of Mus musculus with 6 samples.

Results

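The 10 genes studied belong to the endoplasmic reticulum (ER) calcium system of mouse primary neuronal cultures, in which sarcolipin had the most raised and junctophilin 3 the most lowered transcript of the set after *Pla2g4e* knockdown. Out of 55357 genes in the count files, they were the junctophilins *Jph1*, *Jph3* and *Jph4*, the ryanodine receptors *Ryr2* and *Ryr3*, the IP3 receptor *Itpr1*, the SERCA pumps *Atp2a2* and *Atp2a3*, and the small pump regulators *Sln* and *Pln*. They were picked by name after their differences between the groups in these same libraries had been seen, so that their levels are a description. Where the fit across all genes puts one of them past its threshold, or a setting takes it back, that too only describes these libraries and is no independent test. All 10 were in the files, and 9 passed the filter of at least 6 reads in at least 1 library, together with 21876 genes in all. *Pln* did not pass it.

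The cultures came from the cortex and hippocampus of wild-type C57BL/6N mouse embryos at embryonic day 18. They received a lentivirus with a short hairpin RNA (shRNA) at 4 days in vitro (DIV4) and were collected at DIV14. The shCtrl group of 3 libraries carried a scrambled hairpin, and the sh*Pla2g4e* group of 3 libraries carried the hairpin sh2 against *Pla2g4e*, the gene of a cytosolic phospholipase with N-acyltransferase activity. The virus dose was kept to the lowest that silenced the transcript in part, so the model is a partial knockdown by 1 hairpin. The labels do not say whether the 3 libraries of a group came from separate cultures, so p-values measure only the spread between these libraries.

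Calcium stored in the ER is released through ryanodine receptors, which open on cytosolic calcium, and through IP3 receptors, which open when inositol trisphosphate (IP3) and calcium bind together. SERCA pumps return it to the lumen, and sarcolipin and phospholamban are short membrane peptides, best known from muscle, that slow these pumps. Junctophilins tie the ER membrane to the plasma membrane, so that surface channels and release channels face each other across a narrow cleft, and in neurons these junctions couple calcium entry to calcium-activated potassium channels.

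The hairpin and its matches are shown first, because the 10 genes were compared between cells with and without this sequence. The seed of the guide strand (bases 2 to 8) is in capitals, and so is the site in the target that pairs with it.
sh2 target: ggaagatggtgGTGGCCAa
sh2 guide strand: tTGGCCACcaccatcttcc
Of the 10 genes, 3 held the 7-base seed site GTGGCCA once in the 3′ untranslated region (UTR) of their longest coding transcript (GENCODE vM21, GRCm38), on the transcript strand. Across the 15493 tested genes with such a region, 12.005% held it. Each site is printed with 10 bases on each side and the seed site in capitals.
*Jph3*, chr8:121789759-121789765, plus strand, exon 5: gggcaaaccaGTGGCCAaaagatcggg
*Jph4*, chr14:55107860-55107866, minus strand, exon 6: aagtgattggGTGGCCAgacaaggcac
*Atp2a2*, chr5:122453904-122453910, minus strand, exon 21: tcagttgtaaGTGGCCAgattgctcta
The *Jph3* site was followed by an A, and the other two were not. *Jph1*, *Ryr2*, *Ryr3* and *Atp2a3* held the seed site in the coding sequence only, with 1, 3, 3 and 3 sites. *Atp2a2* held 1 site in the coding sequence besides that in its 3′ UTR. The *Sln*, *Pln* and *Itpr1* transcripts held none. The longest unbroken stretch of the 19-base target found in any of the 10 transcripts was 10 bases, in *Ryr2* and in *Atp2a2*. Whether the hairpin acted on any of these transcripts was not tested.

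Sarcolipin is the shortest product of the set, and its whole coding sequence of 96 bases for 31 residues is printed because it had the largest difference of the 10. It lies in exon 2 of 2 on the plus strand of chr9:53853473-53853568 (GRCm38), with the start and stop codons in capitals.
*Sln*: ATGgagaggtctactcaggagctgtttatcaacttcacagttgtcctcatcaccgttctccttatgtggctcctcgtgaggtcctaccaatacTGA
No 50-base stretch of the *Sln* transcript occurred in the transcripts of other genes, and its exons overlapped no other gene.

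The libraries held 17054717 to 23570180 reads on genes. Levels are given as CPM, read counts scaled to library depth by the trimmed-mean (TMM) method, and levels of different genes are compared as CPM per kilobase of exon. The exon length takes in all annotated exons of a gene and is for some genes longer than its longest coding transcript. Orders, sums, shares and ratios between genes depend on that length. *Pla2g4e* itself stood at 37.98, 35.1 and 35.4 CPM in shCtrl and at 21.8, 14.2 and 18.7 CPM in sh*Pla2g4e*, or 50.5% of the shCtrl mean. Its log2 difference was -0.99 (SE 0.13, edgeR adjusted p = 0.000124). Markers of neurons (*Map2* and *Snap25* the most abundant) summed to 6287 to 6982 CPM in shCtrl and 5735 to 6219 in sh*Pla2g4e*, and those of glutamatergic neurons (*Camk2a* and *Slc17a7*) to 2165 to 2354 and 1624 to 1903, so that both sums were lower in every sh*Pla2g4e* library. The genes of these lists did not move together: of the 8 glutamatergic genes 5 had a log2 difference above 0 and 3 below (median 0.05), with *Slc17a7* at -1.31 and *Camk2a* at 0.02, and of the 12 neuronal genes 4 were above 0 and 8 below. The part of this in the levels of the 10 genes was not tested. Astrocyte markers (*Slc1a2* and *Gfap*) summed to 2978 to 3805 CPM in shCtrl and 2051 to 3244 in sh*Pla2g4e*, so the cultures labelled as neurons also held glia. The sums of astrocyte and GABAergic markers overlapped between the groups but were lower in sh*Pla2g4e* in all 3 pairs of equal replicate number, while those of mural and endothelial cells overlapped and were higher in all 3, and those of microglia and oligodendrocytes went both ways. Over both groups the sums ran from 804.8 to 918 CPM for GABAergic neurons (*Gad1* and *Gad2*), 583 to 738 CPM for the oligodendrocyte lineage (*Mbp* and *Pdgfra*), 71.4 to 129 CPM for mural and endothelial cells (*Cspg4* and *Acta2*) and 23.3 to 34.6 CPM for microglia. Past the threshold were 5 of 12 neuronal, 3 of 8 glutamatergic, 4 of 10 GABAergic and 3 of 10 astrocyte genes, the last 3 (*Slc1a2*, *Gja1* and *Aqp4*) all lower. Of all genes 6.49% were past it, and 10.9% of those whose log2 CPM averaged 3 or more. Of the 9 microglial, 11 oligodendrocyte and 11 mural and endothelial genes tested, edgeR, limma and DESeq2 each passed 0 without a block, while 4, 1 and 1 had an unadjusted edgeR p under 0.05. With the replicate number as a block, edgeR passed 1 gene in each of these lists (*C1qc* and *Olig2* lower, *Kdr* higher, named after their values were seen), and 1 astrocyte gene as higher and 7 as lower. It then passed 3 neuronal genes as higher and 4 as lower, 2 and 3 glutamatergic genes, and 3 and 3 GABAergic genes, with *Snap25*, *Gfap* and *Gad2* among those gained. Of all genes 15.5% passed with the block. In these bulk libraries, fewer cells of a type and less RNA per cell cannot be told apart.

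The difference between the groups was fitted across all 21876 genes with edgeR's quasi-likelihood test, with a threshold of 0.01 on the Benjamini-Hochberg adjusted p. It passed 6.49% of all genes, with 2.48% higher and 4.0% lower in sh*Pla2g4e*. Among the 10 genes it passed *Sln* and *Itpr1* as higher and *Jph3* and *Ryr2* as lower, 4 of the 9 that could be fitted, which is what the choice of the genes used. With the replicate number as a block it passed 15.5% of all genes and 8 of the 9. The CPM of the groups did not overlap in 8 of the 10 genes, against 30.0% of all genes tested. The median log2 difference was 0.23 over the 9 genes, 5 above 0 and 4 below, and 0.03 over all genes. The count of 4 fell to 2 without shCtrl replicate 2, sh*Pla2g4e* replicate 2 or sh*Pla2g4e* replicate 3.

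**Figure D1:**
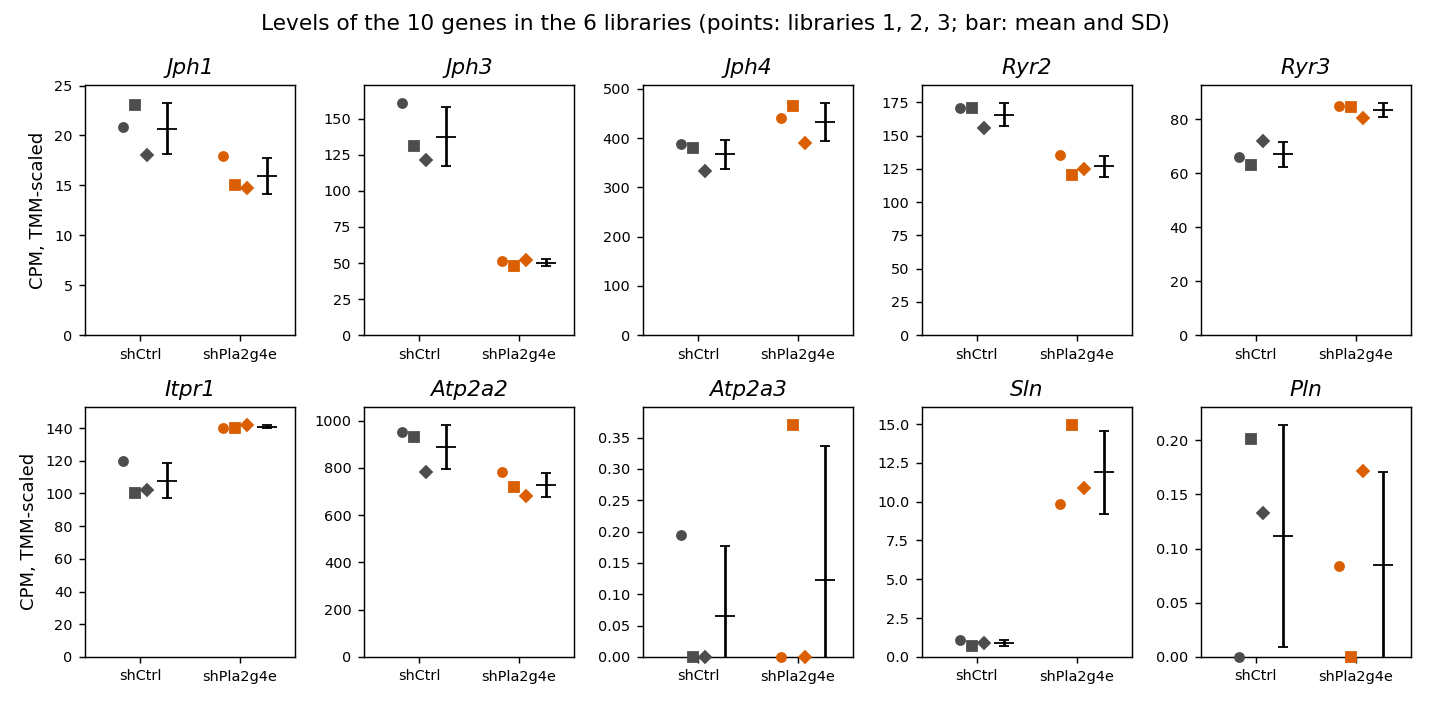
Level of each of the 10 genes in every library, in TMM-scaled CPM on a linear axis that starts at 0 and differs between panels. Circles, squares and diamonds are libraries 1, 2 and 3 of a group, and the bars give mean and SD (n = 3). *Sln* stood at 0.70 to 1.12 CPM in shCtrl and at 9.83 to 14.9 CPM in sh*Pla2g4e*, while *Pln* and *Atp2a3* reached at most 0.20 and 0.37 CPM.

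Among the junctophilins, the brain form *Jph3* was lower in sh*Pla2g4e*, while its fellow brain form *Jph4* did not pass the threshold without the replicate block. *Jph3* (chr8:122456362-122521015, GRCm39) stood at 161, 131 and 121 CPM in shCtrl and at 51.1, 47.99 and 52.1 CPM in sh*Pla2g4e*. Every sh*Pla2g4e* library was thus below every shCtrl library, and the sh*Pla2g4e* libraries lay closer together, with a coefficient of variation of 4.20% against 14.9%. The mean in sh*Pla2g4e* was 36.6% of that in shCtrl, and the log2 difference was -1.45 (SE 0.10, n = 3 and 3). Taken by replicate number it was -1.65, -1.45 and -1.22. *Jph3* stood 400th from the lowest of the 21876 fitted differences, and no setting brought it outside -1.54 to -1.33.

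*Jph4* (chr14:55344283-55354392) had the higher level of the pair in both groups. It stood at 389, 380.2 and 334 CPM in shCtrl and at 441, 466 and 391 CPM in sh*Pla2g4e*. The groups did not overlap, but by a narrow margin, since the lowest sh*Pla2g4e* library lay beside the highest shCtrl library. The log2 difference was 0.23 (SE 0.09).

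*Jph1*, the junctophilin of skeletal muscle triads, was the low member of the group. *Jph1* (chr1:17034784-17168113) had 20.9, 23.1 and 18.03 CPM in shCtrl and 17.99, 15.1 and 14.7 CPM in sh*Pla2g4e*. The lowest shCtrl value and the highest sh*Pla2g4e* value were thus nearly equal. The log2 difference was -0.37 (SE 0.13), past the threshold only with the replicate block. The heart junctophilin *Jph2*, which is not among the 10 genes, was close to absent with 0 to 14 reads per library.

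Per kilobase, junctophilin transcripts summed to 87.1 ± 8.68 CPM in shCtrl and 75.8 ± 5.12 CPM in sh*Pla2g4e* (mean ± SD, n = 3). These ranges overlapped, but by replicate number the sum was lower in sh*Pla2g4e* in all 3 pairs, at 77.5 against 95.4, 79.8 against 87.9 and 70.1 against 78.05 CPM. *Jph3* made up 37.8%, 33.4% and 34.9% of this sum in shCtrl and 14.8%, 13.5% and 16.7% in sh*Pla2g4e*. The share of *Jph4* was 59.8% ± 1.84 in shCtrl and 80.7% ± 1.80 in sh*Pla2g4e*. The ratio of *Jph4* to *Jph3* was 1.53, 1.83 and 1.73 in shCtrl and 5.45, 6.12 and 4.74 in sh*Pla2g4e*. The shares of *Jph3* and *Jph4* thus did not overlap between the groups.

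**Figure D2:**
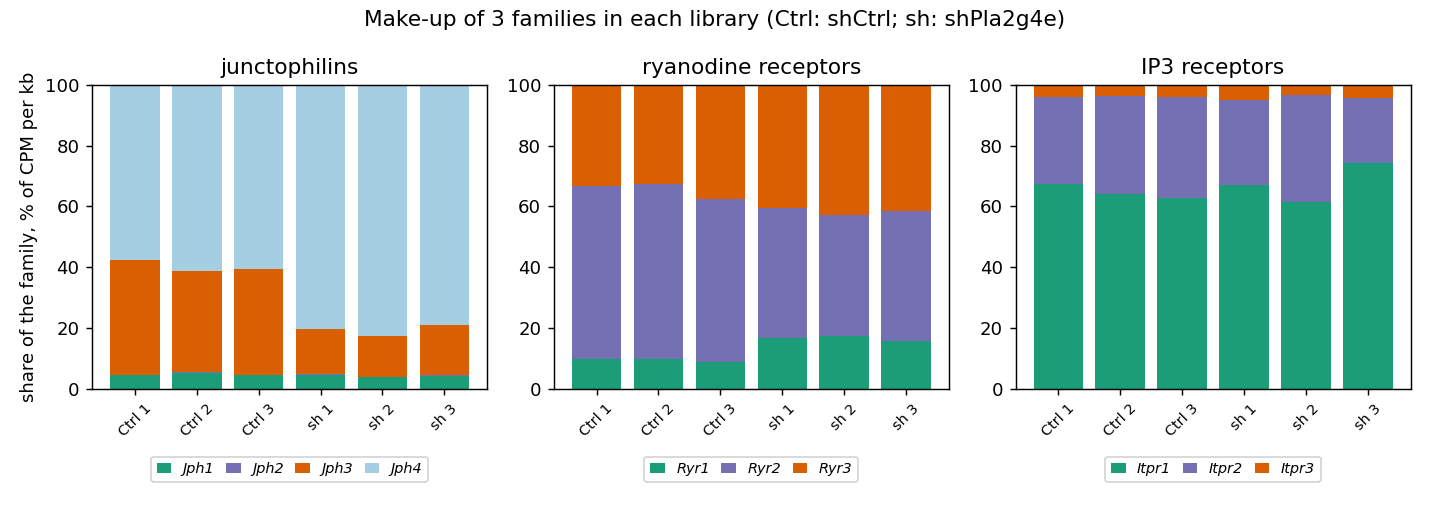
Share of each gene in its family, in percent of the summed CPM per kilobase, for the junctophilins, ryanodine receptors and IP3 receptors. Each column is 1 library (Ctrl for shCtrl, sh for sh*Pla2g4e*). *Jph3* took 33.4% to 37.8% of the junctophilins in shCtrl and 13.5% to 16.7% in sh*Pla2g4e*, and *Ryr2* 53.6% to 57.9% and 40.0% to 42.6% of the ryanodine receptors.

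Among the release channels, *Ryr2* was lower in sh*Pla2g4e*, and *Itpr1* and the relative *Ryr1* were higher. *Ryr2* is the main ryanodine receptor of heart and brain. *Ryr2* (chr13:11567988-12121831) stood at 170.5, 170.4 and 155.5 CPM in shCtrl and at 135.6, 120.1 and 125 CPM in sh*Pla2g4e*. All 3 sh*Pla2g4e* libraries were below all 3 shCtrl libraries. The log2 difference was -0.38 (SE 0.08), and it missed the threshold with library size alone as scaling (-0.31) and when shCtrl replicate 1 (-0.36), shCtrl replicate 2 (-0.36), sh*Pla2g4e* replicate 2 (-0.34) or sh*Pla2g4e* replicate 3 (-0.37) was left out.

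*Ryr3*, a widely expressed form found at low levels in brain and muscle, had the other sign. *Ryr3* (chr2:112461700-113047441) stood at 65.9, 63.0 and 72.0 CPM in shCtrl and at 85.1, 84.6 and 80.6 CPM in sh*Pla2g4e*. The groups did not overlap, and the log2 difference was 0.32 (SE 0.08), past the threshold of 0.01 only with the replicate block, with DESeq2, with library size alone, with no filter, with at least 10 reads in every library or without shCtrl replicate 3 (0.37). Of its exon bases, 4.83% overlap *Aven* on the other strand, and 5.19% of its 50-base stretches occur in other genes.

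*Ryr1*, the release channel of skeletal muscle, is not among the 10 genes and was tested as a relative. It stood at 22.0, 21.5 and 19.5 CPM in shCtrl and at 40.5, 39.2 and 35.2 CPM in sh*Pla2g4e*. It was 1.82 times higher, with a log2 difference of 0.87 (SE 0.10, edgeR adjusted p = 3.24e-05), and it passed under every setting tried. Per kilobase, the ryanodine receptors summed to 10.2 ± 0.16 CPM in shCtrl and 10.6 ± 0.44 CPM in sh*Pla2g4e*. Within this sum *Ryr2* made up 56.1% ± 2.27 in shCtrl and 41.7% ± 1.47 in sh*Pla2g4e*, *Ryr3* 34.5% ± 2.74 and 41.7% ± 1.09, and *Ryr1* 9.39% ± 0.48 and 16.6% ± 0.72. In sh*Pla2g4e*, *Ryr2* and *Ryr3* thus stood at 4.41 and 4.40 CPM per kilobase of annotated exon. In shCtrl, *Ryr2* was the higher in every library. The likeness in sh*Pla2g4e* depends on the exon lengths used, 28790 bases for *Ryr2* and 18977 for *Ryr3*. Their longest coding transcripts have 16814 and 15410 bases.

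*Itpr1*, the main IP3 receptor of neurons, was higher in sh*Pla2g4e*. *Itpr1* (chr6:108190057-108528070) stood at 120.0, 101 and 102 CPM in shCtrl and at 140.3, 140.2 and 142 CPM in sh*Pla2g4e*. The sh*Pla2g4e* libraries agreed within a coefficient of variation of 0.63% and all lay above shCtrl. The log2 difference was 0.39 (SE 0.08), and it missed the threshold when any library but shCtrl replicate 1 was left out, at values from 0.34 without shCtrl replicate 2 to 0.39 without sh*Pla2g4e* replicate 1.

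The other IP3 receptors were tested as relatives and did not pass. *Itpr2*, known from glia, had a log2 difference of 0.21 (SE 0.16, edgeR adjusted p = 0.479), and its sh*Pla2g4e* libraries spread from 33.2 to 65.4 CPM around the shCtrl range of 40.7 to 44.2 CPM. *Itpr3* had 0.45 (SE 0.22, edgeR adjusted p = 0.21) at 2.92 to 4.94 CPM. The IP3 receptors summed to 9.07 ± 0.60 CPM per kilobase in shCtrl and 11.4 ± 1.03 in sh*Pla2g4e*. The ratio of ryanodine to IP3 receptors was 1.07, 1.19 and 1.13 in shCtrl and 0.97, 0.83 and 0.98 in sh*Pla2g4e*, which did not overlap. The size of this ratio depends on the exon lengths used, which were the same for both groups.

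Of the pumps, only SERCA2 was abundant in these cultures. *Atp2a2* (chr5:122591576-122640288), which encodes the SERCA2 pump found in nearly all cells, was the highest of the 10 genes with 950.4, 932 and 781 CPM in shCtrl and 781, 719.9 and 681 CPM in sh*Pla2g4e*. The third shCtrl library, at 781.2 CPM, lay next to the first sh*Pla2g4e* library, at 781.0 CPM. The log2 difference was -0.29 (SE 0.09), past the threshold of 0.01 only with the replicate block or without shCtrl replicate 3 (-0.37). Of its 50-base stretches, 4.28% occur in other genes.

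*Atp2a3*, the SERCA3 pump of blood and epithelial cells, had 4, 0 and 0 reads in shCtrl and 0, 8 and 0 in sh*Pla2g4e*. At this depth no difference was detectable, and the fitted interval ran from -2.60 to 4.42 on the log2 scale. *Pln* had 0, 4 and 3 reads in shCtrl and 2, 0 and 3 in sh*Pla2g4e*, and was not fitted. Of its exon bases, 64.7% overlap *Cep85l* and *Gm47644* on the other strand, so even these few reads cannot be assigned to it with certainty. Among the relatives, the muscle pump *Atp2a1* had 8 to 44 reads (log2 difference 0.60, SE 0.51, edgeR adjusted p = 0.52), with 21.9% of its exon bases overlapping *Rabep2*, and the muscle micropeptide gene *Mrln* had at most 4 reads. *Strit1*, another such gene, had no match by symbol and was not measured.

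Among the small SERCA regulators measured here, *Sln*, *Pln* and *Mrln*, only sarcolipin had more than a few reads. It stood near absence in shCtrl and well above it in sh*Pla2g4e*. *Sln* (chr9:53757448-53761844) had 23, 14 and 20 reads in shCtrl and 235, 323 and 191 reads in sh*Pla2g4e*, or 1.12, 0.70 and 0.89 CPM against 9.83, 14.9 and 10.9 CPM. The lowest sh*Pla2g4e* library, with 191 reads, lay far above the highest shCtrl library, with 23. The mean level was 13.2 times higher, and the log2 difference was 3.71 (SE 0.24), with 3.14, 4.41 and 3.62 by replicate number. It stood 206th from the highest of the 21876 fitted differences and stayed between 3.51 and 3.88 under every setting. The coefficient of variation was alike in both groups, 22.8% and 22.6%.

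Because sarcolipin acts on the pump, its transcript was also set against that of the pump. Per kilobase there were 0.54, 0.35 and 0.52 *Sln* transcripts per 100 of *Atp2a2* in shCtrl and 5.81, 9.57 and 7.40 in sh*Pla2g4e*. The transcript therefore remained far rarer than that of the pump in every library. These are ratios of RNA levels, and no protein was measured here.

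*Sln* is known as a marker of striated muscle, and genes of that tissue were measured beside it. Of 39 muscle genes, 29 passed the filter, with 22 above 0 and 7 below. Past the threshold were 3 as higher (*Neb* 2.54, *Xirp1* 2.13 and *Tcap* 1.69 on the log2 scale) and 0 as lower, or 10.3% against 6.49% of all genes. With the block 5 of the 29 were higher, *Actn2* among them, and 0 lower, where 15.5% of all genes passed. The list summed to 70.6 to 75.4 CPM in shCtrl and to 141 to 170.3 CPM in sh*Pla2g4e*, with *Actn2*, also a protein of dendritic spines, and *Neb* as the most abundant. *Myod1* was at 0 in every library, and 10 of the 39, among them *Myog*, *Ckm* and *Mb*, had under 6 reads in each. The part of these genes in the level of *Sln* was not tested.

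**Figure D3:**
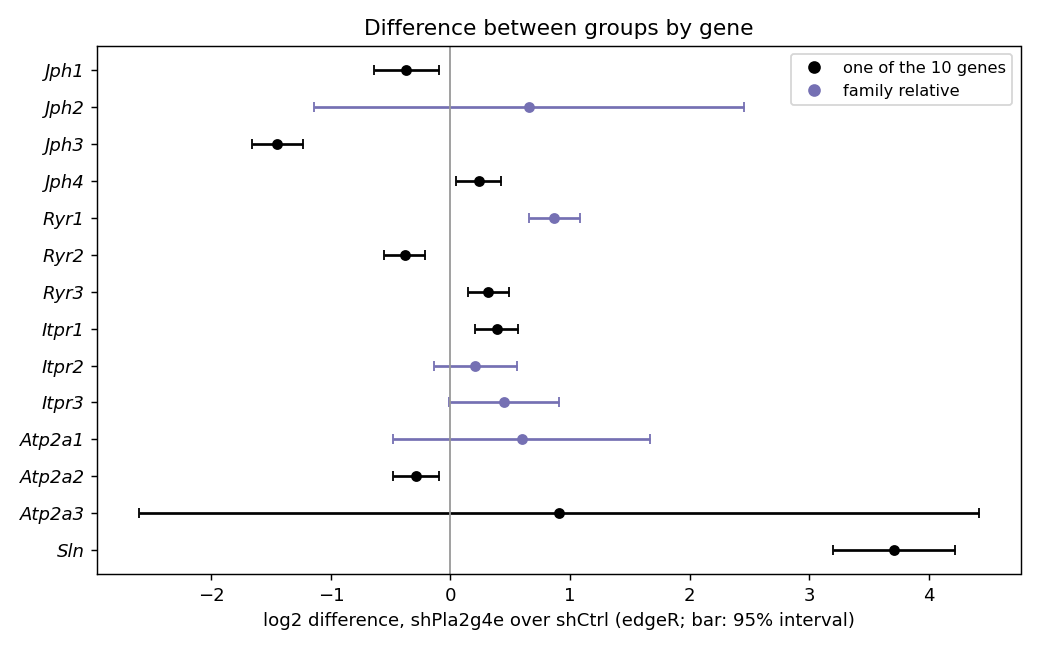
Fitted log2 difference (sh*Pla2g4e* over shCtrl, edgeR) of the 9 of the 10 genes that could be fitted (black) and of family relatives (violet), with bars for the 95% interval. *Jph3* and *Sln* stand farthest from 0 with intervals of -1.66 to -1.24 and 3.20 to 4.22, and the interval of *Atp2a3* spans 0 widely.

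Ordered by level per kilobase, *Atp2a2* (146 CPM), *Jph4* (52.0) and *Jph3* (30.9) led in shCtrl, followed by *Itpr1* (5.88), *Ryr2* (5.75), *Jph1* (4.13), *Ryr3* (3.53), *Sln* (0.69), *Pln* (0.04) and *Atp2a3* (0.01). *Itpr1* and *Ryr2* overlapped between libraries, as did *Jph1* and *Ryr3*, and so did *Pln* and *Atp2a3*, while the other neighbours did not. In sh*Pla2g4e* the order was *Atp2a2* (119.6), *Jph4* (61.2), *Jph3* (11.3), *Sln* (9.02), *Itpr1* (7.69), *Ryr2* (4.41), *Ryr3* (4.40) and *Jph1* (3.19), with *Pln* (0.03) and *Atp2a3* (0.02) last. Here *Sln* overlapped with both *Jph3* and *Itpr1*, and *Ryr2* with *Ryr3*, and *Pln* with *Atp2a3*. By this measure *Sln* thus moved from below the 3 release channels of the set to above both ryanodine receptors. The exon length was 18319 bases for *Itpr1*, 4457 for *Jph3* and 1318 for *Sln*. Their longest coding transcripts have 9870, 3637 and 1318 bases. Near places in the order, such as those of *Jph3*, *Sln* and *Itpr1* in sh*Pla2g4e*, therefore depend on the length used.

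For *Sln* and *Jph3*, the genes with the most similar pattern over the 6 libraries were looked up among 10908 genes whose log2 CPM averaged 3 or more. For *Sln* these were *Dusp1*, a phosphatase of MAP kinases (Pearson's r = 0.9995), the imprinted gene *Peg10* (r = 0.9974) and the mitochondrial carrier *Slc25a53* (r = 0.9958). For *Jph3* they were *Thsd4* (r = 0.9988), *Ap2m1*, a subunit of the clathrin adaptor AP-2 (r = 0.9982), and *Tbc1d16* (r = 0.998). *Dusp1* stood at 33.8 ± 2.64 CPM in shCtrl and 71.7 ± 4.35 CPM in sh*Pla2g4e*, and *Thsd4* at 37.8 ± 6.20 and 15.3 ± 0.67 CPM (mean ± SD, n = 3). Since the libraries form 2 groups, these correlations mostly reflect the difference between the groups, and 248 and 697 genes had an r above 0.95 with *Sln* and *Jph3*.

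Other genes of calcium handling were taken from 11 lists by function, which hold 126 genes beyond the 10. Of the 123 that could be tested, edgeR passed 8 as higher and 10 as lower, or 14.6% against 6.49% of all genes. Most of these genes are well expressed, and where the log2 CPM averaged 3 or more the share was 17.1% of 105 against 10.9% of all such genes. With library size alone as scaling the split turned to 16 higher and 9 lower, and all genes from 543 higher and 876 lower to 796 and 609. With the replicate block it was 21 higher and 24 lower, and without shCtrl replicate 2 it was 3 and 7. The seed site stood in the 3′ UTR of 2 of the 10 lower genes, *Asph* and *Calm3*, of none of the 8 higher genes and of 14 of the 123.

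Calcium extrusion had 3 of 14 genes lower and 1 higher. The sodium-calcium exchanger *Slc8a1* stood at 453, 469 and 363 CPM in shCtrl and at 234, 206 and 212 CPM in sh*Pla2g4e* (log2 difference -0.98, SE 0.10, edgeR adjusted p = 9.16e-06). The plasma membrane calcium pump *Atp2b2* fell to 53.7% of the shCtrl mean (-0.90, SE 0.09, edgeR adjusted p = 8.49e-06). Its neuronal relative *Atp2b3* had -0.70 (SE 0.08, edgeR adjusted p = 3.8e-05). The exchanger *Slc24a4*, named after its values were seen, was higher at 0.46. *Slc8a1*, *Atp2b2* and *Atp2b3* passed under every setting. With the block 1 was higher and 7 lower.

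Of 13 ER luminal calcium-binding proteins tested, 11 had a difference above 0 and 2 passed as higher, with a median of 0.24. The chaperone *Hspa5*, or BiP, stood at 246, 246 and 227 CPM in shCtrl and at 327, 360.5 and 308 CPM in sh*Pla2g4e* (log2 difference 0.47, SE 0.08, edgeR adjusted p = 0.00123). *Hsp90b1*, or GRP94, had 0.45 (SE 0.09, edgeR adjusted p = 0.00312), and 13.8% of its 50-base stretches occur in other genes. Without shCtrl replicate 2, neither passed (adjusted p 0.0107 and 0.0134), and *Hsp90b1* was also lost without sh*Pla2g4e* replicate 1 (0.014) or 2 (0.017). With the replicate block 6 passed as higher and 0 as lower. The store buffer *Calr* had 0.21 (edgeR adjusted p = 0.153), and its membrane-bound relative *Canx* had 0.27 (edgeR adjusted p = 0.0531, and 0.000371 with the block).

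Of 23 partners of the release channels, 2 were lower. *Asph*, whose locus also gives rise to junctin of the ryanodine receptor complex, had -0.66 (SE 0.09, edgeR adjusted p = 9.74e-05), with 33.9% of its 50-base stretches shared with other genes and 14.7% of its exon bases under genes of the other strand. *Calm3*, 1 of the calmodulin genes, had -0.45 (SE 0.08, edgeR adjusted p = 0.0018) and did not pass without shCtrl replicate 2 (adjusted p 0.0242). With the block 3 were higher and 3 lower. The surface channels of such junctions were measured as 7 genes, 6 of them below 0. *Kcnma1*, the large-conductance calcium-activated potassium channel, was lower at -0.63 (SE 0.09, edgeR adjusted p = 0.000228), and with the block 3 were lower.

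Store-operated entry had 2 of 12 genes higher. The cation channel gene *Trpc6* stood at 18.5, 21.8 and 22.1 CPM in shCtrl and at 30.9, 29.9 and 29.2 CPM in sh*Pla2g4e* (log2 difference 0.53, SE 0.10, edgeR adjusted p = 0.00294). It was lost without shCtrl replicate 1 or 2 or without sh*Pla2g4e* replicate 1 (largest adjusted p 0.0179). With the block 2 were higher and 1 lower.

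In IP3 production and removal, 1 of 21 genes was higher and 1 lower. *Itpka*, the kinase that phosphorylates IP3, had 0.76 (SE 0.13, edgeR adjusted p = 0.000914), and the phospholipase C gene *Plce1* had -0.69 (SE 0.13, edgeR adjusted p = 0.00271). With the block 4 were higher and 3 lower. *Plce1* was lost without shCtrl replicate 2 or without sh*Pla2g4e* replicate 1 or 2 (largest adjusted p 0.0261).

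Of 12 mitochondrial uptake genes, *Letm1* was lower (-0.44, SE 0.09, edgeR adjusted p = 0.00311), which was lost with library size alone and without shCtrl replicate 1 or sh*Pla2g4e* replicate 1 or 2 (largest adjusted p 0.0218). With the block 2 were higher and 2 lower. Among 16 cytosolic buffers and sensors, *Hpcal1* was higher (0.57, SE 0.10, edgeR adjusted p = 0.0011) under every setting. *Ncald* (-0.44, SE 0.09, edgeR adjusted p = 0.00241) and the potassium channel partner *Kcnip1* (-0.59, SE 0.11, edgeR adjusted p = 0.00268) were lower. Both were lost without shCtrl replicate 1 or sh*Pla2g4e* replicate 2, and *Ncald* also without shCtrl replicate 2 and *Kcnip1* without shCtrl replicate 3 (largest adjusted p 0.0169 and 0.0145). With the block 2 were higher and 5 lower.

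**Figure D4:**
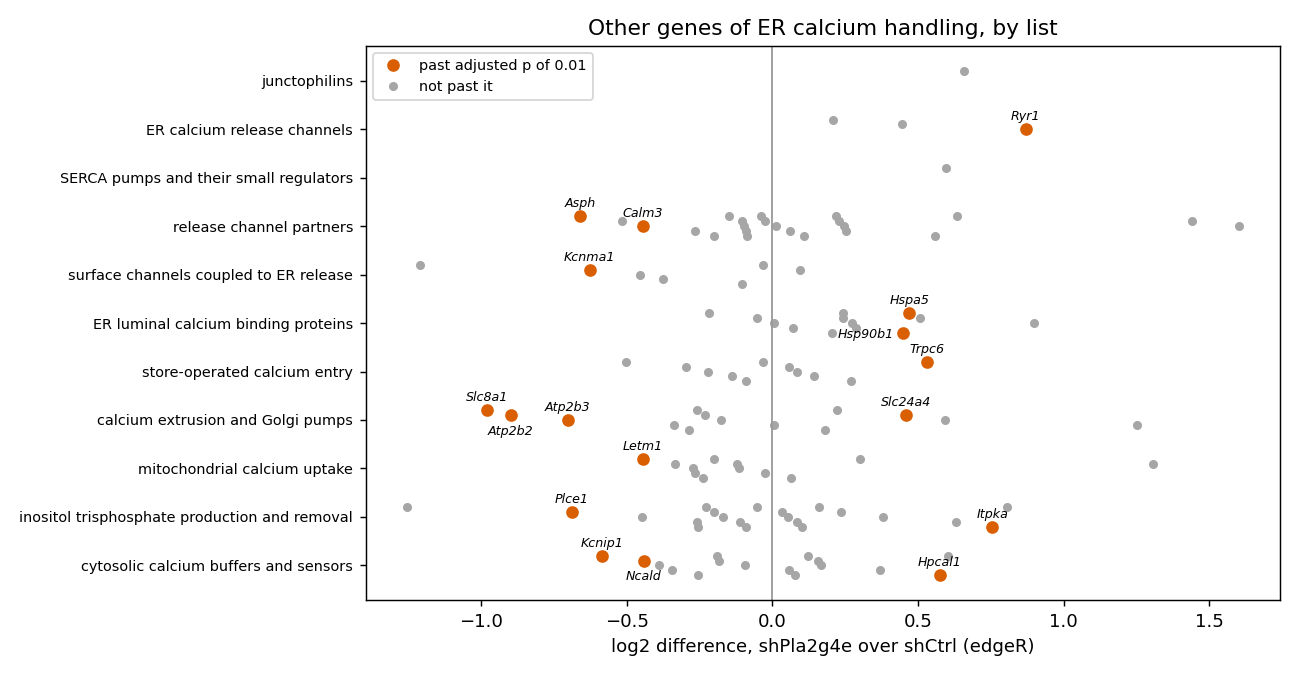
Fitted log2 difference (sh*Pla2g4e* over shCtrl, edgeR) of tested genes beyond the 10, 1 row per list and 1 point per gene, spread vertically for legibility. Named orange points passed the threshold of 0.01, and they lie on both sides of 0, with *Slc8a1* at -0.98 and *Ryr1* at 0.87 as the outermost of those shown.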

How the data were processed

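RNA-seq of 3 shCtrl and 3 sh*Pla2g4e* libraries was used, grouped by the labels. Per the labels and the file headers, the authors prepared libraries with a stranded poly(A) kit, aligned the reads with STAR (2.7.0d) and counted them on exons with featureCounts (1.6.0), and they deposited raw counts per gene (GENCODE vM28, GRCm39) without normalization; the study's methods name other releases, mm10 and GENCODE M18. Counting was run with neither a strand nor a pair option, so reads from an antisense neighbour can enter a gene's total and both mates of a fragment are counted. Reads mapping to several places were dropped, which lowers genes with near-identical copies. Totals were 17054717 to 23570180 per library, and levels of genes with few reads are limited by counting error.

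Symbols came from GENCODE vM21 by gene identifier (52081 of 55357 matched), as did transcripts and seed sites (GRCm38), and the hairpin from the study's list of oligonucleotides. The 10 genes and all lists were chosen with earlier results of these data known. Genes reaching 6 reads in any library were fitted with edgeR (4.0.16) with TMM scaling, the quasi-likelihood test and Benjamini-Hochberg adjustment, at the authors' threshold of 0.01. The named relatives are the other members of the gene families. In each list the genes beyond the 10 with the smallest p past the threshold, at most 3, are named, and in each marker list the 2 most abundant; a few genes these rules would name are not reported here, though counts and sums include them. SDs are over the 3 libraries of a group, and the two-sided p-values come from the fit. Alternatives were limma (3.58.1) after voom, DESeq2 (1.42.0), DESeq2 size factors, no filter, a minimum of 10 reads in every library, scaling by library size alone, a threshold of 0.05, the replicate block, and leaving out each library. Libraries with the same replicate number deviated together from their group means (correlations 0.392, 0.189 and 0.461 over 10908 genes, against -0.393 to 0.108 between different numbers), and the numbers were taken as pairs on this ground alone, since the labels name no shared batch. The fits were tested on simulated data.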

Additional observations from a re-analysis of the deposited data

How the results depend on the processing

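Of 1419 genes past the threshold, leaving out 1 library at a time left 695 to 1613, while no filter gave 2349, the replicate block 3395 and a threshold of 0.05 gave 2813. For the 123 calcium genes beyond the 10, the 18 became 32, 45 and 36 under the same settings and 10 to 21 without 1 library. For the 10 genes, the 4 became 8 with the replicate block and 2 to 5 without 1 library. The block changed no other call of a named gene than those the report gives. The log2 difference of *Itpr2*, 0.415 at most without another library, reversed to -0.063 without sh*Pla2g4e* replicate 2, and that of *Atp2a1*, 0.934 at most, to -0.071 without sh*Pla2g4e* replicate 1; neither had passed the threshold, and the cause was not tested. Over the named genes, 351 of their values under an alternative kept direction and side of the threshold, 34 lost the call and 10 gained it. *Sln*, *Jph3*, *Ryr1* and *Pla2g4e* passed under all of them. Library size alone moved the median of all genes from 0.03 to 0.10, and no direction of the 10 genes turned. *Atp2a3* and *Pln* are limited by depth, and the *Atp2a3* value moved to 4.47 without shCtrl replicate 1.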
